A study of Mus musculus with 8 samples.

Results

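The genes described here are 10 modulators and feedback regulators of Notch signaling: the Fringe genes *Lfng*, *Mfng* and *Rfng*, the feedback regulators *Nrarp* and *Dtx1*, the endocytic adaptors *Numb* and *Numbl*, the non-canonical ligand *Dlk1*, and the nuclear partners *Rbpj* and *Maml1*. They were chosen by symbol, and all 10 had an entry among the 32531 gene symbols of the deposited count table. All 10 were also among the 15082 genes with enough counts to be tested, the cutoff being 10 or more counts in 4 or more libraries.

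Whole pancreatic islets from 4 controls and from 4 β-tetO-NICD mice were profiled by RNA-Seq. The study did so after targeted analyses had not explained the altered islet architecture of these mice. Every mouse carried RIP-Cre, in which insulin promoter sequence drives Cre in β cells, and Rosa26-rtTA, which makes the doxycycline-responsive (Dox-responsive) transactivator after Cre recombination. The β-tetO-NICD mice also carried tetO_NICD, which encodes the Notch1 intracellular domain, and the controls did not. Both groups received Dox for 8 weeks and shared 1 mixed background of C57BL/6J, 129X1/SvJ and BALB/c, so that the controls differed by the tetO_NICD allele and not by Cre, rtTA or Dox. In the study Dox was begun at weaning or, in a separate experiment, in older mice, and its methods do not say which of these the sequenced islets came from. The transgene acts in β cells, whereas the RNA came from all cells of the islet preparation, so that fewer cells of a type and less RNA per cell cannot be told apart in any value given here. Libraries are named by the number of their column in the count table (Control 1 to 4; β-tetO-NICD 1, 2, 4 and 5).

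Notch receptors are cut after ligand binding, and the released intracellular domain (NICD) joins the DNA-binding protein Rbpj and a Mastermind coactivator such as Maml1 to activate target genes. Fringe enzymes extend sugars on the receptor and so tune which ligands activate it. Numb proteins direct the receptor to endocytosis, Deltex proteins are ubiquitin ligases that bind the receptor, and Nrarp is a target of the NICD complex whose protein binds that complex and promotes loss of NICD. Dlk1 is a membrane protein that resembles Delta but lacks the domain that canonical ligands use to activate the receptor. In islets, Notch activity is best known for holding back endocrine differentiation during development.

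The promoters printed here were picked for different reasons. *Nrarp* and *Neurl1b* are the modulator and the listed pathway gene with the largest fold changes, *Lfng* is the only one of the 9 modulators with a promoter entry that held an extended Rbpj-type match, and *Hes5* is a classical target given for comparison. Each is the sequence of 250 bases before the RefSeq start site on the plus strand of GRCm38.p6, with the letters TGGGAA, the core of the Rbpj recognition sequence, or their reverse complement TTCCCA in capitals. The regions are chr2:25180508-25180757 for *Nrarp*, chr17:26414609-26414858 for *Neurl1b*, chr5:140607091-140607340 for *Lfng* and chr4:154960673-154960922 for *Hes5*. The RefSeq starts of *Nrarp* and *Hes5* are also the gene starts in GENCODE, whereas the last 21 bases of the *Lfng* window and the last 30 of the *Neurl1b* window lie past the GENCODE gene start.
Nrarp: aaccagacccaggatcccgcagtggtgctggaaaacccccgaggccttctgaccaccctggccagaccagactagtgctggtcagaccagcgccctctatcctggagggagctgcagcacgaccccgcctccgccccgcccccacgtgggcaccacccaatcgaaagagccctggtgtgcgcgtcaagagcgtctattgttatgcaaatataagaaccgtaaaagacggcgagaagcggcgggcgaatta
Neurl1b: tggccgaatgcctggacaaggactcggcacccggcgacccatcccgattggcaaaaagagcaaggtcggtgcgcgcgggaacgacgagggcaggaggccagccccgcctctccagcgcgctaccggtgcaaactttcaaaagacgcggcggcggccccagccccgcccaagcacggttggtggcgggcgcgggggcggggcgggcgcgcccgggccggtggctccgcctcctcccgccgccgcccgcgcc
Lfng: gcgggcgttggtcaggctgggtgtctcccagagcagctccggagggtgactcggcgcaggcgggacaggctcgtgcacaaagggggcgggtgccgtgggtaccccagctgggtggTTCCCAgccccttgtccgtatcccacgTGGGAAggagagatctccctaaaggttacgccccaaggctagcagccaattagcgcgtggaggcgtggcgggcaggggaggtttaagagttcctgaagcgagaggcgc
Hes5: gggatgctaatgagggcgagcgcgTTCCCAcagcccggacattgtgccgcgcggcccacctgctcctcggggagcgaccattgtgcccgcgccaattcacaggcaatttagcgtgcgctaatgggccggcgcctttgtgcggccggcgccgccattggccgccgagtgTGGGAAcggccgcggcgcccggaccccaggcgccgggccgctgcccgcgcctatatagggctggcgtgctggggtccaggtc

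The *Hes5* window held 2 matches, beginning 226 and 82 bases before the start, and both extended to GTGGGAA on one strand or the other. The *Lfng* window also held 2, at 135 and 108 bases before the start, of which 1 extended to GTGGGAA. The *Nrarp* and *Neurl1b* windows held no TGGGAA on either strand, which says only that these letters are not in these 250 bases. Among the modulators, 9 of 10 had a RefSeq promoter entry (not *Mfng*), with 12 start sites in all, and 2 genes, *Lfng* and *Rbpj*, held TGGGAA. The windows of the 2 *Rbpj* start sites end 124194 and 124334 bases past its GENCODE gene start, and that of *Numbl* 328 bases past its own. Among all 32851 mouse promoters of the same length, 21.6% held TGGGAA on either strand and 5.42% held GTGGGAA, so that matches of this kind are common.

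The libraries held 21701223 to 26413146 counts each, and levels are given below as CPM, that is, counts scaled to a common library total after adjustment by the trimmed mean of M values (TMM). At these depths 3 counts, taken as the limit of detection, equal 0.114 to 0.138 CPM before the TMM adjustment. Every modulator had more than 3 counts in every library. *Notch1*, which shares sequence with the transgene, was at 65.0, 57.5, 41.6 and 63.4 CPM in the controls and at 1008, 1322, 1216 and 574 CPM in the β-tetO-NICD libraries, matching the labels of all 8. Reads of the transgene and of the endogenous gene were not separated. The libraries also differed in ways the labels do not give. The rank correlation between transcript length and each library's deviation from the mean level of each gene was positive in Control 1, 2 and 4 and β-tetO-NICD 1 (0.418 to 0.497) and negative in Control 3 and β-tetO-NICD 2, 4 and 5 (-0.521 to -0.174). The Y-linked gene *Eif2s3y* was detected in 3 libraries (Control 2 and 4 and β-tetO-NICD 5, with 1300 to 1527 counts) and had at most 1 count in the other 5, although the study's methods name male islets for expression work. The labelled tissue held its defining markers (*Ins2* was the most abundant β cell marker), and in the test described next 3 of 8 β cell markers fell in β-tetO-NICD islets, while 2 of 5 α cell and 1 of 3 δ cell markers rose. Summed β cell markers were at 156553 to 197311 CPM in controls and 71891 to 171789 CPM in β-tetO-NICD libraries, and summed α cell markers at 12070 to 43168 and 55527 to 70514 CPM, without overlap. Among other cells, none of 12 acinar markers passed (summed level 56937 to 114095 CPM in controls and 47963 to 159493 CPM in β-tetO-NICD libraries), and neither did any of 6 duct or 8 mesenchymal markers. Of 8 macrophage markers 1 (*C1qa*) rose, and their summed level did not overlap between the groups, at 140 to 185 CPM in controls and 208 to 299 CPM in β-tetO-NICD libraries. Of 8 lymphocyte markers 3 could be tested and 0 passed. Their summed level was 12.0 to 23.3 CPM in controls and 21.9 to 30.9 CPM in β-tetO-NICD libraries, their mean log2 CPM was higher in every β-tetO-NICD library (-0.71 to 0.21) than in every control (-1.63 to -1.04), and *Cd3e* had 1 to 10 counts. The part of these differences in the values of the modulators was not tested.

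Of the 10 modulators, 1 (*Nrarp*) rose and none fell at an adjusted p under 0.05 in the quasi-likelihood test of edgeR, adjusted over all tested genes. The same test called 6.76% of all tested genes, 4.19% higher and 2.57% lower. The log2 fold change was positive in 6 modulators and negative in 4, with a median of 0.15, beside a median of 0.000714 over all tested genes. With the length trend removed 8 modulators were positive and 2 negative. The libraries of the groups did not overlap for 2 of 10 modulators, *Nrarp* (higher) and *Numb* (lower), against 16.1% of all tested genes. An unadjusted p under 0.05 was reached by 3 of the 10 modulators (*Nrarp*, *Dlk1* and *Numb*) and by 31.6% of all tested genes, so that the modulators' share was close to the background.

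**Figure D1:**
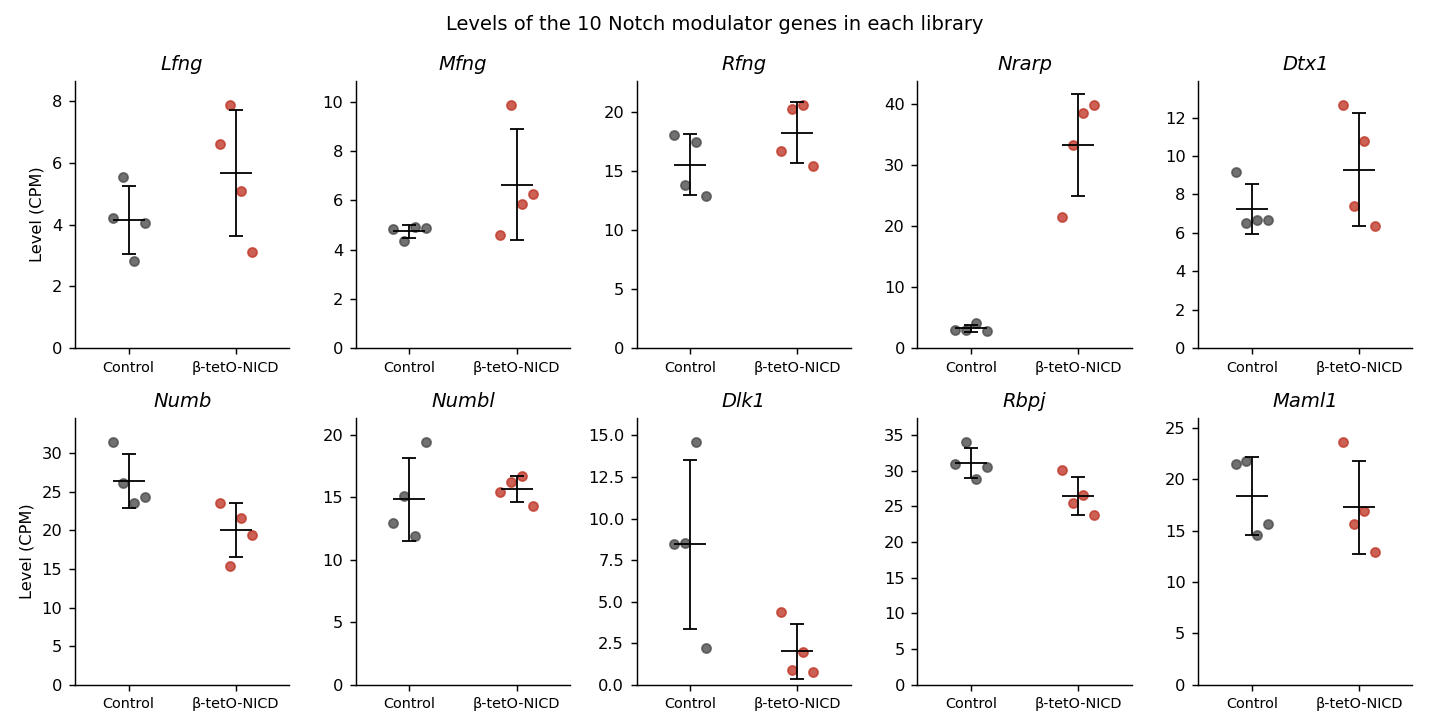
Level of each of the 10 Notch modulator genes in CPM (vertical axis, linear, from 0) in the 4 control (gray) and 4 β-tetO-NICD (red) libraries, with the mean and SD of each group in black. The 4 β-tetO-NICD points of *Nrarp* lie between 21.4 and 39.7 CPM, all above the controls, whereas the groups overlap in the other panels except *Numb*, where they are separated by a narrow gap.

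*Nrarp*, the feedback inhibitor of NICD, was the modulator that rose. It lies on chromosome 2 (GRCm38, 25180758 to 25183339, plus strand). Its level was 2.95, 3.04, 4.04 and 2.88 CPM in Control 1 to 4 and 21.4, 33.2, 38.4 and 39.7 CPM in β-tetO-NICD 1, 2, 4 and 5. The lowest β-tetO-NICD library was thus far above the highest control, and β-tetO-NICD 1 was below the other 3 of its group. The group means were 3.23 ± 0.543 and 33.2 ± 8.37 CPM (SD, n = 4 each). In the edgeR fit, this was a 10.3-fold increase, or 3.36 ± 0.24 on the log2 scale (SE, with a 95% confidence interval of 2.83 to 3.89, adjusted p = 8.52e-05). It rested on 64, 72, 102 and 71 counts in the controls and 450, 761, 1158 and 789 in the β-tetO-NICD libraries.

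The rise of *Nrarp* was seen on both sides of the length trend. Among libraries with a positive trend (β-tetO-NICD 1 against Control 1, 2 and 4) the difference in log2 CPM was 2.82, and among those with a negative trend (β-tetO-NICD 2, 4 and 5 against Control 3) it was 3.17. With 1 library on one side of each, neither has a test. Without the 3 libraries that held *Eif2s3y* counts the log2 fold change was 3.15 (edgeR, adjusted p = 0.0172), where 0.719% of all tested genes were called. Endothelial cells also use Notch, and their 8 markers, none of which passed the test, summed to 450 to 688 CPM in controls and 581 to 735 CPM in β-tetO-NICD libraries; with the endothelial score as a covariate the log2 fold change of *Nrarp* was 3.42. Of the exon bases of *Nrarp*, 79.4% overlap *Gm38287* on the opposite strand, a gene with no entry in the count table under that symbol, and whether counting used strand is not given in the sources used here.

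*Dtx1*, the Deltex ubiquitin ligase that binds the Notch receptor and is itself a Notch target in lymphocytes, did not pass the test. It lies on chromosome 5 (GRCm38, 120680202 to 120711927, minus strand). It was at 9.18, 6.50, 6.65 and 6.66 CPM in Control 1 to 4 and at 12.6, 7.38, 10.8 and 6.35 CPM in β-tetO-NICD 1, 2, 4 and 5. Control 1 was above the other 3 controls, which lay close together, and β-tetO-NICD 5 was below all controls. The log2 fold change was 0.36 ± 0.25 (SE), with a 95% confidence interval of -0.20 to 0.92 (edgeR, adjusted p = 0.326), which leaves room for a 1.89-fold increase but not for one of the size of *Nrarp*. Without β-tetO-NICD 1 it was 0.18. The 4 other Deltex genes ranged from -0.35 (*Dtx2*) to 0.41 (*Dtx4*) in log2 fold change, and 0 of 4 passed the test.

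**Figure D2:**
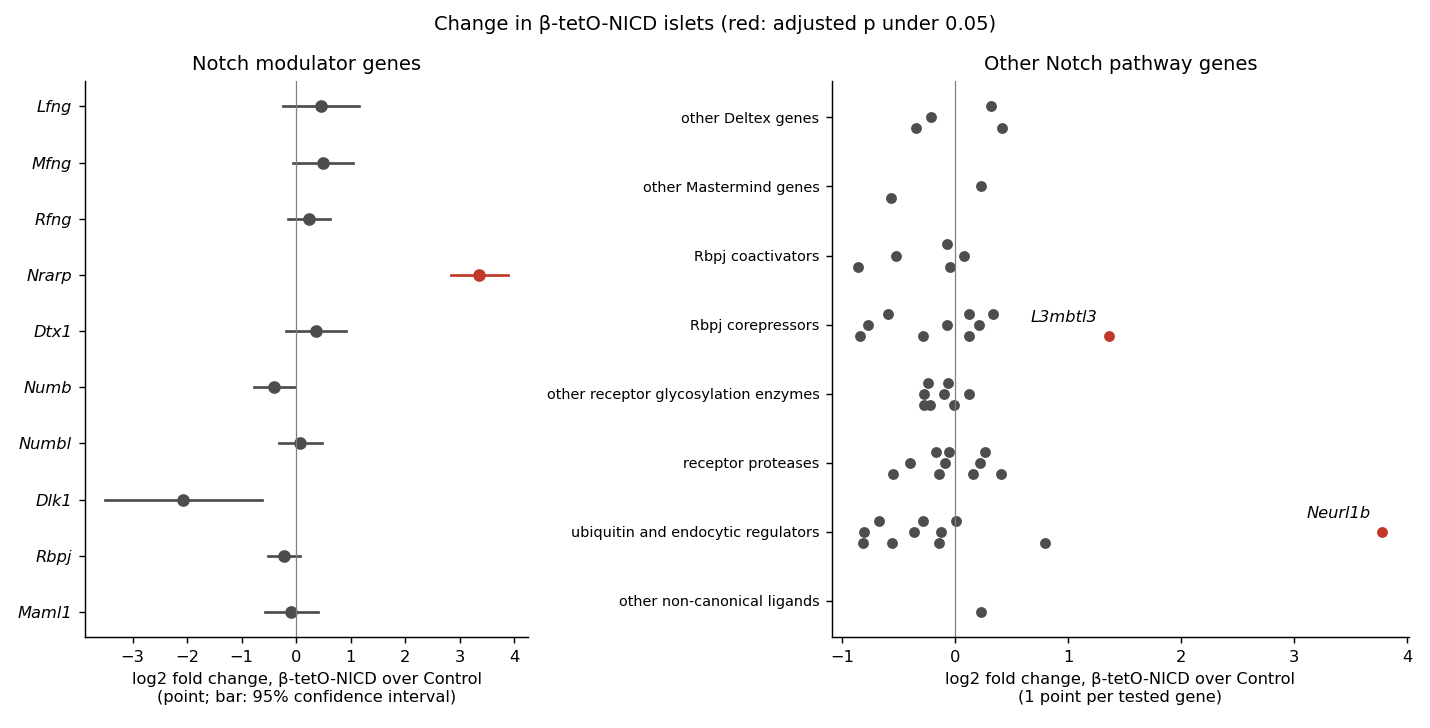
Left, log2 fold change of β-tetO-NICD over control islets for the 10 modulators (horizontal axis) with 95% confidence intervals. Right, the same quantity for 51 other tested Notch pathway genes, 1 point per gene, by list. Red marks an adjusted p under 0.05: *Nrarp* at 3.36 on the left, and *L3mbtl3* at 1.36 and *Neurl1b* at 3.78 on the right.

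The Fringe genes encode N-acetylglucosaminyltransferases of the Golgi that act on O-fucose of the Notch receptor, and none of the 3 passed the test. In GRCm38, *Lfng* lies on chromosome 5 (140607320 to 140615545, plus strand), *Mfng* on chromosome 15 (78755882 to 78773475, minus strand) and *Rfng* on chromosome 11 (120780746 to 120784207, minus strand). *Lfng* (lunatic fringe) was at 4.20, 5.53, 2.81 and 4.06 CPM in the controls and at 6.61, 7.86, 5.08 and 3.12 CPM in the β-tetO-NICD libraries. *Mfng* (manic fringe) was at 4.84, 4.35, 4.91 and 4.87 CPM in the controls and at 4.61, 9.87, 5.84 and 6.25 CPM in the β-tetO-NICD libraries. *Rfng* (radical fringe) was at 18.1, 13.8, 17.4 and 12.9 CPM in the controls and at 16.7, 20.3, 20.6 and 15.4 CPM in the β-tetO-NICD libraries. The groups overlapped for all 3 genes, and the highest β-tetO-NICD value of *Mfng* and of *Lfng* was in the same library, β-tetO-NICD 2.

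The log2 fold changes of the Fringe genes were all positive, and every 95% confidence interval included 0. They were 0.45 ± 0.32 for *Lfng* (SE, with a 95% confidence interval of -0.25 to 1.15), 0.49 ± 0.25 for *Mfng* (-0.06 to 1.04) and 0.23 ± 0.17 for *Rfng* (-0.15 to 0.62). The adjusted p-values by edgeR were 0.331, 0.199 and 0.360. The interval of *Lfng*, whose promoter window held GTGGGAA, reached up to 2.23-fold. The sizes depended on single libraries and on the length trend: without β-tetO-NICD 2 they were 0.26 for *Lfng* and 0.24 for *Mfng*, with the length trend removed 0.28, 0.19 and 0.10 for *Lfng*, *Mfng* and *Rfng*, and in the libraries without *Eif2s3y* counts 0.90 for *Lfng* and 0.12 for *Rfng*. Levels of *Mfng* were tight in the controls, 4.74 ± 0.263 CPM, and spread in the β-tetO-NICD libraries, 6.64 ± 2.26 CPM (SD, n = 4 each).

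Ratios between family members within a library do not depend on how libraries are scaled, and they were compared by an exact two-sided permutation test, adjusted over 4 ratios. The smallest p possible with 4 libraries a group is 0.0286, which for a single ratio becomes 0.114 after adjustment, so that no ratio could have passed 0.05 alone however large its shift. The log2 ratio of *Lfng* to *Rfng* was -1.91 ± 0.56 in controls and -1.74 ± 0.47 in β-tetO-NICD libraries (SD, n = 4, exact p = 0.657, adjusted 0.876). That of *Mfng* to *Rfng* was -1.68 ± 0.22 and -1.49 ± 0.39 (exact p = 0.429, adjusted 0.857), and that of *Lfng* to *Mfng* was -0.23 ± 0.46 and -0.25 ± 0.61 (exact p = 0.914, adjusted 0.914). The groups overlapped in all 3 Fringe ratios, and the differences between their means were smaller than the SD within the controls.

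*Numb* and *Numbl* encode related adaptor proteins that oppose Notch by sorting the receptor. *Numb* lies on chromosome 12 (83794034 to 83921934, minus strand) and *Numbl* on chromosome 7 (27258433 to 27282144, plus strand). *Numb* was at 31.4, 26.1, 23.6 and 24.4 CPM in Control 1 to 4 and at 23.5, 15.4, 21.6 and 19.3 CPM in β-tetO-NICD 1, 2, 4 and 5. All β-tetO-NICD values lay below all controls, but the lowest control (Control 3) and the highest β-tetO-NICD library (β-tetO-NICD 1) were nearly level. The log2 fold change was -0.40 ± 0.17 (SE, with a 95% confidence interval of -0.78 to -0.02), with an adjusted p of 0.144 by edgeR, so that *Numb* did not pass the test over all genes.

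*Numbl* was at 13.0, 15.1, 11.9 and 19.4 CPM in the controls and at 15.4, 16.2, 16.7 and 14.3 CPM in the β-tetO-NICD libraries. The β-tetO-NICD values all lay inside the range of the controls, and the log2 fold change was 0.08 ± 0.18 (SE, with a 95% confidence interval of -0.32 to 0.47, edgeR, adjusted p = 0.783). The log2 ratio of *Numbl* to *Numb* was -0.84 ± 0.40 in controls and -0.34 ± 0.29 in β-tetO-NICD libraries, a difference of 0.51 (SD, n = 4, exact permutation p = 0.114, adjusted 0.457). With the length trend removed that difference was 0.96. *Numbl* moved most of the modulators when the length trend was removed, reaching 0.63 on the log2 scale (edgeR, adjusted p = 0.0779), and without Control 3 its log2 fold change was -0.02. The trend removal used its longest transcript of any type, 8511 bases, whereas its longest coding transcript has 2760. Both length-adjusted values of *Numbl* depend on that length, and a fit with the coding length was not run.

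*Dlk1*, an imprinted gene expressed from the paternal allele and known from preadipocytes and from endocrine cells, had the largest negative fold change of the modulators and the widest error. It lies on chromosome 12 (GRCm38, 109452823 to 109463336, plus strand). Its level was 8.49, 8.53, 14.6 and 2.19 CPM in Control 1 to 4 and 4.37, 0.917, 1.99 and 0.756 CPM in β-tetO-NICD 1, 2, 4 and 5. Control 4 lay below β-tetO-NICD 1, so that the groups overlapped, and levels varied 6.66-fold within the controls and 5.79-fold within the β-tetO-NICD libraries. The means were 8.45 ± 5.07 and 2.01 ± 1.67 CPM (SD, n = 4 each).

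The fitted level of *Dlk1* was 4.20-fold lower with NICD, a log2 fold change of -2.07 ± 0.64 (SE, with a 95% confidence interval of -3.51 to -0.63). Its p was 0.00946 and its adjusted p 0.0764 by edgeR, above the threshold. DESeq2, which called 18.2% of all tested genes, gave an adjusted p of 0.00739, and leaving out β-tetO-NICD 1 gave -2.75 with an edgeR adjusted p of 0.0114, in a fit that called 33.2% of tested genes. On leaving out each library in turn, the fold change ran up to -1.67 and the edgeR adjusted p up to 0.203. Without the libraries that held *Eif2s3y* counts it was -2.25 (edgeR, adjusted p = 0.177). The difference in log2 CPM was -0.31 among libraries with a positive length trend and -3.61 among those with a negative trend, of which Control 3 was the only control. Of 7 listed genes of the *Dlk1*-*Dio3* imprinted domain, 4 were in the count table, and *Meg3*, *Rian* and *Mirg* were not analysed here. *Rtl1*, which is also paternally expressed, had a log2 fold change of -0.45 (edgeR, adjusted p = 0.501) and *Begain* -0.17 (adjusted p = 0.766). *Dio3*, the thyroid hormone-inactivating deiodinase at the other end of the domain, was at or under 3 counts in each control and at 11 to 46 counts in the β-tetO-NICD libraries. Its increase with NICD was at least 8.06-fold (edgeR, adjusted p = 0.0103), so that not all genes of the domain had fold changes of the sign of *Dlk1*. *Dio3* met the cutoff for testing only through the β-tetO-NICD libraries, where it is high.

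The nuclear partners *Rbpj* (chromosome 5, 53466152 to 53657362, plus strand) and *Maml1* (chromosome 11, 50255634 to 50292311, minus strand) did not pass the test. *Rbpj*, the DNA-binding partner of NICD, was at 30.9, 34.0, 28.8 and 30.4 CPM in the controls and at 30.0, 25.4, 26.6 and 23.7 CPM in the β-tetO-NICD libraries. Of the β-tetO-NICD libraries, 3 lay below all controls and β-tetO-NICD 1 lay within their range. The log2 fold change was -0.23 ± 0.13 (SE, with a 95% confidence interval of -0.52 to 0.06, edgeR, adjusted p = 0.240), and 0.04 with the length trend removed. *Maml1*, a Mastermind coactivator of the NICD complex, was at 21.5, 21.7, 14.6 and 15.7 CPM in the controls and at 23.6, 15.7, 16.9 and 12.9 CPM in the β-tetO-NICD libraries. Its groups overlapped widely, and its log2 fold change of -0.09 ± 0.22 (SE, with a 95% confidence interval of -0.58 to 0.40, adjusted p = 0.793) turned positive in 6 of 22 alternative fits. The other Mastermind genes *Maml2* (0.23) and *Maml3* (-0.57) did not pass the test either.

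Levels of different genes can be compared only per length, and CPM were therefore divided by the length in kilobases of the longest coding transcript of each gene. In controls the highest level per kilobase was that of *Numb*, 7.43 ± 0.993, followed by *Rfng* at 7.35 ± 1.22, *Rbpj* at 5.66 ± 0.393 and *Numbl* at 5.38 ± 1.20 CPM per kilobase (SD, n = 4). These 4 overlapped with their neighbors in the order and were separated from *Maml1* at 3.32 ± 0.682. *Mfng* (2.54 ± 0.141), *Dlk1* (1.82 ± 1.09), *Lfng* (1.80 ± 0.483) and *Dtx1* (1.80 ± 0.320) followed, each overlapping with the next, and *Nrarp* had the lowest mean, 1.25 ± 0.210. Its control libraries (1.12 to 1.56) lay below those of the genes above it except *Lfng* (1.22 to 2.40) and *Dlk1* (0.471 to 3.14), with which they overlapped. In β-tetO-NICD libraries *Nrarp* was first, at 12.9 ± 3.24 CPM per kilobase, overlapping with *Rfng* at 8.62 ± 1.22. *Dlk1* was last at 0.432 ± 0.358, and at these lengths its libraries overlapped with no other modulator. The order depends on the transcript chosen. The median transcript length of *Dlk1* is 1291.5 bases, against 4653 for its longest coding transcript, and that of *Numb* 1299.5 against 3549. An order by median lengths was not computed. By this measure, the modulator with the lowest mean level in controls had the highest mean level in β-tetO-NICD islets.

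**Figure D3:**
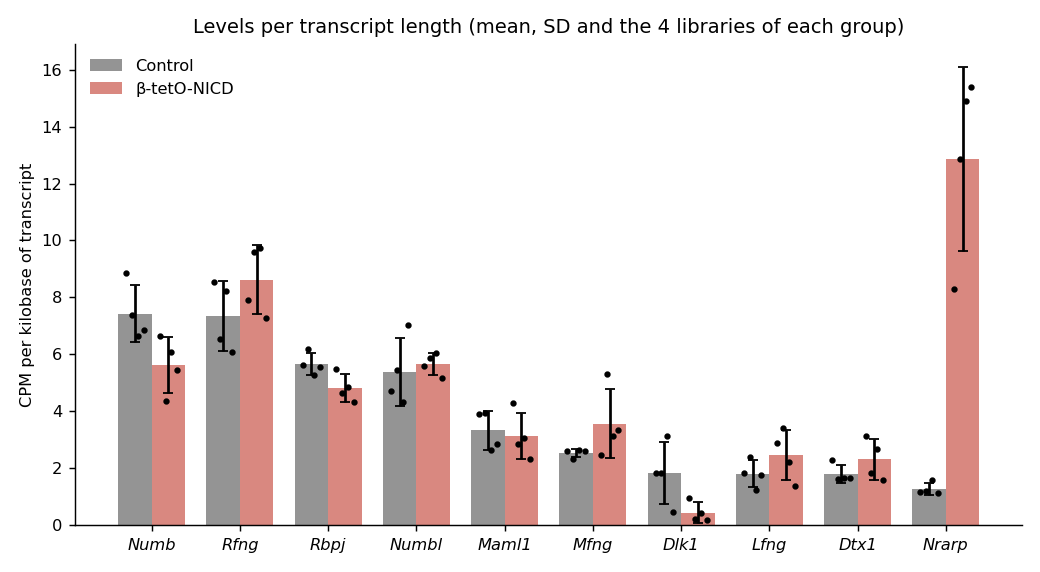
Level of each modulator in CPM per kilobase of its longest coding transcript (vertical axis from 0) in control (gray) and β-tetO-NICD (red) islets, in the order of the control means. Bars are means, error bars SD and points the 4 libraries of each group. *Nrarp* goes from the lowest bar in controls, 1.25, to the highest in β-tetO-NICD islets, 12.9.

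The other genes of the pathway were taken from lists of 52 genes, of which 51 were tested. *Dlk2* had at most 3 counts in any library. Of the 51, 2 rose and none fell (3.92% called, against 6.76% of all tested genes), 18 fold changes were positive and 33 negative, and the median log2 fold change was -0.10. With the length trend removed the signs were 28 positive and 23 negative (median 0.03), so that the lean to negative values was not kept. The count of calls depended on β-tetO-NICD 1. Without it 16 of the 51 passed, of which 5 rose and 11 fell (among them *Ep300*, *Ncor1*, *Adam10*, *Itch* and *Nedd4*), in the fit that called 33.2% of all tested genes. *Neurl1b*, a Neuralized ubiquitin ligase that promotes endocytosis of Notch ligands, was at 8.49, 7.43, 5.34 and 5.93 CPM in the controls and at 67.7, 94.1, 108 and 104 CPM in the β-tetO-NICD libraries. All β-tetO-NICD values were far above all controls, with a 13.7-fold increase, a log2 fold change of 3.78 ± 0.22 (SE, with a 95% confidence interval of 3.29 to 4.27, edgeR, adjusted p = 3.71e-05). *L3mbtl3*, a methyl-lysine reader that represses Notch targets together with Rbpj, was at 5.44, 4.01, 3.09 and 4.26 CPM in the controls and at 10.7, 11.7 and 10.7 CPM in β-tetO-NICD 1, 4 and 5, with β-tetO-NICD 2 slightly lower (group mean 10.8 ± 0.708 CPM, SD, n = 4). It was 2.57-fold higher (log2 fold change 1.36 ± 0.20, SE, with a 95% confidence interval of 0.91 to 1.81, edgeR, adjusted p = 0.00512) with no overlap of the groups. Without the libraries that held *Eif2s3y* counts its log2 fold change was 1.35 and its adjusted p 0.140.

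No other listed pathway gene passed the test with all 8 libraries. Among 5 coactivators of Rbpj the log2 fold changes ran from -0.86 (*Ep300*, an acetyltransferase) to 0.07 (*Snw1*), and among the 10 corepressors from -0.84 (*Ncor1*) to that of *L3mbtl3*, the 1 of 10 that passed. Among 8 other enzymes of receptor glycosylation they stayed within -0.28 (*Eogt*) and 0.12 (*Gxylt2*), a narrow range that included *Pofut1*, the O-fucosyltransferase that makes the sugar on which Fringe acts, at -0.24 (0.04 with the length trend removed). *Gxylt2* turned to -0.16 without β-tetO-NICD 5, and was also negative without Control 1 or 3. Among 10 proteases of the receptor they ran from -0.55 (*Adam10*, which cuts the extracellular site; adjusted p = 0.0758) to 0.41 (*Psenen*, a subunit of γ-secretase, at -0.25 with the length trend removed). Among 11 ubiquitin and endocytic regulators *Neurl1b* was the 1 that passed, and the others ran from -0.81 (*Itch*) to 0.79 (*Neurl1a*). *Neurl1a*, a paralog of *Neurl1b*, had groups that did not overlap (19.6 to 42.5 CPM in controls, 43.6 to 59.2 CPM in β-tetO-NICD libraries) and an edgeR adjusted p of 0.0650.

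The genes whose pattern across the 8 libraries was most like that of *Nrarp* were found by the root mean square difference of log2 CPM, each gene centered on its control mean, among 12704 genes. The nearest were *Ffar2*, a receptor for short-chain fatty acids (0.256), *Tagln3*, a transgelin of neural tissue (0.264), and *Pcp4*, a calmodulin-binding peptide (0.358). *Ffar2* was at 29.0 to 35.2 CPM in the controls and at 196 to 528 CPM in the β-tetO-NICD libraries, *Tagln3* at 2.91 to 4.51 and 37.1 to 46.3 CPM, and *Pcp4* at 3.13 to 5.26 and 33.4 to 89.4 CPM. Like *Nrarp*, all 3 were lowest among the β-tetO-NICD libraries in β-tetO-NICD 1. They were chosen for likeness to *Nrarp* over these same libraries, so a shared profile follows from the choice. *Neurl1b* was 8th in this order (0.442). The canonical targets *Hey1* (0.527), *Hes1* (0.539) and *Heyl* (0.617) were 14th, 15th and 20th, and *Notch1* (0.809) was 41st. *Hes5* was below the level required of the candidates, and *L3mbtl3* (1.43) was 227th. The measure describes likeness in size and profile over 8 libraries and was not tested.

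**Figure D4:**
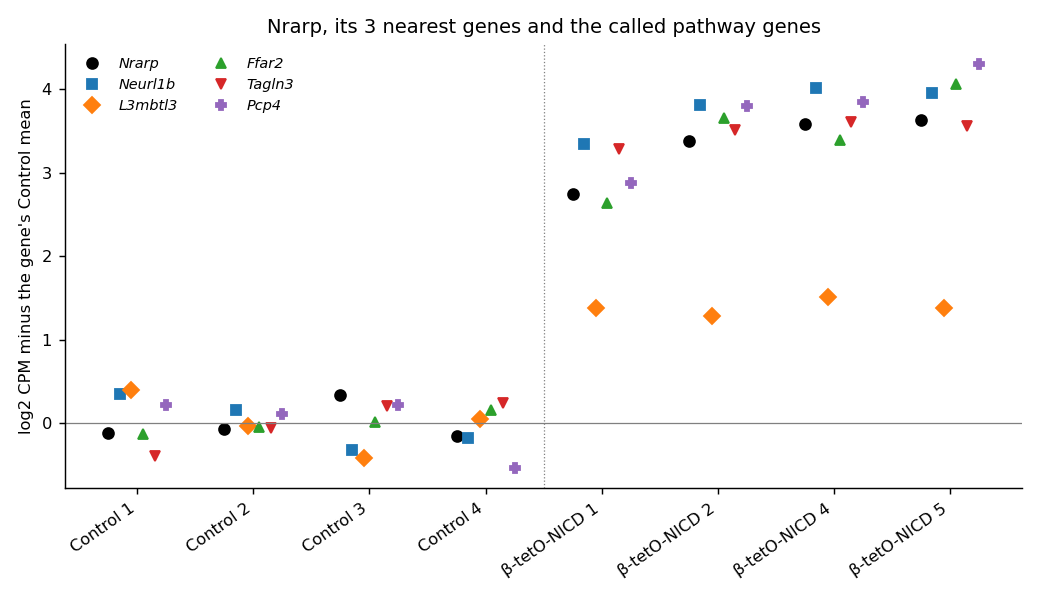
Log2 CPM minus the control mean of the gene (vertical axis) in each of the 8 libraries (horizontal axis) for *Nrarp*, the 3 genes nearest to it in pattern, and the 2 other pathway genes that rose. In β-tetO-NICD libraries *Nrarp* and its nearest genes lie close together well above 0, and *L3mbtl3*, with a fitted log2 fold change of 1.36, lies between them and the controls.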

How the data were processed

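Islet RNA of 8 mice (4 control, 4 β-tetO-NICD) was measured with a stranded mRNA kit. The authors pseudoaligned reads to the GRCm38 mouse transcriptome with Kallisto and deposited whole-number counts per gene symbol; the version, the annotation, the rounding and the strand setting are not given in the sources used here. Tool names in the submitters' processing notes are bcl2fastq, Kallisto and limma. A second deposited table of the authors' own comparison (log2 fold changes, p-values and related statistics) was not used. The 10 genes and all lists were chosen with earlier results of these data known. Columns NICD 4 and 5 were assigned by group only, since their numbers do not settle which mouse each is.

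Counts were tested with edgeR 4.0.16 (R 4.3.3) by the quasi-likelihood test with TMM library sizes on genes with 10 or more counts in 4 or more libraries, without covariates, with Benjamini-Hochberg adjustment over 15082 genes and a threshold of 0.05. Log2 CPM used a prior count of 2, the SE was the fold change divided by the root of the F statistic, and intervals are at 95%. Totals were 21701223 to 26413146 counts, and limits of 3 counts cover counting error only. No pair of libraries in a group agreed within sampling noise (chi-square per gene of at least 31.5). The study's methods give 4 mice per group, and whether any library pooled mice is not stated. Ratios of paralogs were compared with scipy 1.17.1. Named genes were all 10 modulators, every listed pathway gene past the threshold, those giving the range of a list, and the 3 genes nearest to each modulator that passed (mean log2 CPM of at least 1). Gene positions and transcript lengths were from GENCODE M21, promoters from RefSeq. The length trend and its offset used the longest transcript of any type, and levels per kilobase the longest coding transcript. Alternatives were DESeq2 1.42.0, limma-voom 3.58.1, relative log expression and upper-quartile scaling, other filters, covariates (acinar score, endothelial score, *Eif2s3y* detection), a loess length offset (span 0.5), a replicate block and leaving out each library; the subset without *Eif2s3y* counts and the sign of the length trend as a covariate were added after seeing the data. The code was tested on simulated data.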

Additional observations from a re-analysis of the deposited data

Results flagged for a closer look

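Of 56 groups of 4 values examined (levels of the named genes, marker scores and library measures), 6 had a lowest or highest library whose gap to the nearest other, divided by the range of the group, was above Dixon's 95% critical value for 4 values. Chance alone gives about 3 of 56. Among the modulators, all in the controls, the ratio was 0.891 for *Mfng*, with Control 2 lowest, 0.841 for *Nrarp*, with Control 3 highest, and 0.932 for *Dtx1*, with Control 1 highest. The acinar marker score stood apart in Control 1, which was highest (0.915). The rank correlation with transcript length stood apart in Control 3, lowest of the controls (0.882), and in β-tetO-NICD 1, highest of its group (0.833).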

How the results depend on the processing

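*Nrarp* (3.02 to 3.52 in log2 fold change) and *Neurl1b* (3.68 to 4.18) kept their direction and passed the threshold in all 22 alternatives, and *L3mbtl3* in all but the libraries without *Eif2s3y* counts (1.35). *Dlk1* stayed negative in all 22. The count of modulators that passed was 2 (*Nrarp*, *Dlk1*) by DESeq2 and 1 to 2 on leaving out 1 library, 2 only without β-tetO-NICD 1. Pathway genes that passed numbered 5 by DESeq2 (*Aak1*, *Adam10*, *L3mbtl3*, *Neurl1a*, *Neurl1b*; the first 2 lower), 5 with the length offset, all higher (*Cbl*, with its sign turned, *Dtx4*, *L3mbtl3*, *Neurl1a*, *Neurl1b*), 3 with upper-quartile scaling (with *Neurl1a*, edgeR adjusted p = 0.0498), 3 with the acinar score as a covariate (with *Adam10*, lower, adjusted p = 0.0460), 1 in libraries without *Eif2s3y* counts and 2 to 16 on leaving out 1 library, 16 (5 higher, 11 lower) without β-tetO-NICD 1. Over all genes 1020 passed, 2739 by DESeq2, 1552 with the length offset, 608 with the sign of the length trend as a covariate, 104 in libraries without *Eif2s3y* counts, and 319 (without β-tetO-NICD 2) to 4954 (without β-tetO-NICD 1) on leaving out 1 library; the share that was higher was 62.0%, and 48.9% without β-tetO-NICD 1. The subset without *Eif2s3y* counts has fewer libraries, and otherwise the cause was not tested. Signs turned for *Maml1* (0.17 with the length offset, 0.058 without *Eif2s3y* libraries, 0.16 with the sign of the length trend, -0.27 to 0.030 on leaving out 1 library), *Rbpj* (0.042 with the length offset), *Numbl* (-0.016 to 0.24 on leaving out 1 library, negative without Control 3), the *Lfng* to *Rfng* ratio (-0.061 to 0.37, negative without Control 3) and the *Lfng* to *Mfng* ratio (0.077 with the length trend removed, and -0.28 to 0.22 on leaving out 1 library, positive without Control 2, β-tetO-NICD 2 or 5). Among named pathway genes that did not pass, signs also turned for *Aak1* (-0.81 to 0.094), *Psenen* (to -0.25) and *Pofut1* (to 0.039) with the length offset, for *Cbl* (-0.28 to 0.34 with the length offset, 0.17 with the sign of the length trend, 0.059 in libraries without *Eif2s3y* counts), and on leaving out 1 library for *Gxylt2* (to -0.16), *Maml2* (-0.00101 without β-tetO-NICD 1) and *Snw1* (-0.00110 without β-tetO-NICD 2).

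Only numbers 1 and 2 are settled in both groups, and nothing says that they pair mice. With a replicate block on them, 1 modulator and 2 pathway genes passed (970 over all genes), with *Nrarp* at 3.33 and *Dlk1* at -2.31 (edgeR, adjusted p = 0.0668). *Dlk1* rested on 15 to 92 counts in the β-tetO-NICD libraries and on 54 to 369 in the controls.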
